A study of Mus musculus with 2 samples.

Results

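Cytosolic ribosomal protein genes encode the proteins of the large and small subunits of the ribosome that translates nuclear-encoded mRNA in the cytosol. They were chosen by symbol, not by measured values: a probe set counted when the platform annotation named a single gene with a symbol of the Rpl or Rps series, Rplp0, Rplp1, Rplp2 or Rpsa, without the Rps6k kinases. The rule found 70 genes among 17097 named by single-gene probe sets, through 133 probe sets. Of these genes, 69 had a usable value. The exception was Rpl3, whose only probe set held a control value repeated from a nearby row (14.0005 in control KD, 14.07 in H2A.B KD, not used).

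The arrays compared feeder-free mouse embryonic stem (ES) cells with and without depletion of H2A.B, a short variant of histone H2A. Both groups carried a retrovirus, pMSCV-neo, that expressed a short-hairpin RNA from a U6 promoter, and both were kept on gelatin with serum and ESGRO and selected with G418 for 2 to 4 weeks. The H2A.B KD cells carried a hairpin against H2A.B, in the culture that the title numbers 1, and the control KD cells a control sequence. Each group had 1 array of 2 µg total RNA, so no difference has a replicate error and nothing was tested. The level of H2A.B itself was not examined here, and neither the strain nor whether the cells were clonal is given in the sources used here.

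Each ribosomal protein is needed in about the same number of copies as its partners, and their genes are known for being expressed together at a high level in growing cells. Their mRNAs begin with a cytosine followed by a run of pyrimidines, the 5′ terminal oligopyrimidine (TOP) tract, through which the kinase mTOR and the RNA-binding protein Larp1 regulate their translation. Mammalian genomes also hold many processed pseudogene copies of these genes. Probe sets for them therefore often carry a suffix that marks probes shared between transcripts or with other sequences, and here 54 of the 69 values came from such probe sets.

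Runs of pyrimidines lie over the annotated start of some of these genes. Such a run can include bases before the start and can have T as the first base. The runs are therefore not a count of TOP tracts, and the annotated starts of Rpl7a, Rpl27a and Rpl34 below are T. RefSeq promoter windows (GRCm38.p6, 250 bases before to 50 bases after a start) were found for 56 of the 70 genes, with 67 starts. Below are 15 bases before and 15 from the start for the 6 ribosomal protein genes with the longest pyrimidine runs and for Rpl3l, the muscle paralog that differed most. Capitals mark the unbroken run of C and T over the start, which can go on beyond the bases shown.
Rpl7a, chr2:26910792-26910821, plus strand: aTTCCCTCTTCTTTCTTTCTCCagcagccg
Rpl27a, chr7:109519180-109519209, plus strand: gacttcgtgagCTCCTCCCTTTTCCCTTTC
Rpl34, chr3:130730323-130730352, minus strand: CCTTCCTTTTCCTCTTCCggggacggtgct
Rpl35, chr2:39005117-39005146, minus strand: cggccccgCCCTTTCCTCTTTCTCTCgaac
Rpl15, chr14:18270972-18271001, minus strand: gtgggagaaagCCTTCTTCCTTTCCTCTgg
Rpl14, chr9:120571502-120571531, plus strand: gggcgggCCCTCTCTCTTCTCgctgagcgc
Rpl3l, chr17:24727811-24727840, plus strand: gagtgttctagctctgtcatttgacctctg

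A run of at least 6 pyrimidines over the start was present at 17 of the 67 ribosomal protein starts (25.4%) and at 7.25% of all 32851 starts in the table. The letters CCGGAAG, the core bound by GABP and other ETS factors, were present on either strand in 38.8% of the ribosomal protein windows and 8.86% of all windows. GGGCGG, the core bound by Sp1, was in 59.7% and 35.7%, AAGATGG, a YY1 core, in 16.4% and 6.34%, and TATAAA in 10.4% and 13.6%. These motifs were chosen after the windows had been seen. The difference between the arrays had a median of 0.0085 over the 17 genes with such a run and -0.0099 over the 39 without, and of -0.0018 over the 25 genes with CCGGAAG and -0.0060 over the 31 without. Genes with and without these features thus had medians close to 0.

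As a group, the ribosomal protein genes were about as bright after H2A.B KD as in the control. Values are RMA intensities on the log2 scale, each gene is read on its brightest usable probe set, and a difference is H2A.B KD minus control KD, so that 1 is 2-fold. The median difference was -0.00067 over the 69 genes, with 34 above and 35 below 0, and the middle 50% of them lay between -0.03 and 0.04. None was 2-fold higher and 1 was 2-fold lower, against 1.13% higher and 2.91% lower of all 16563 genes. A total of 67 genes (97.1%) were within 0.5, a limit that Rpl3l and Rpl14 passed, against 88.9% of all 16563 genes. These cultures were measured in bulk, so fewer cells and less RNA per cell cannot be told apart. Quantile normalization gives both arrays the same overall distribution, so a shift shared by most transcripts would not show here.

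**Figure D1:**
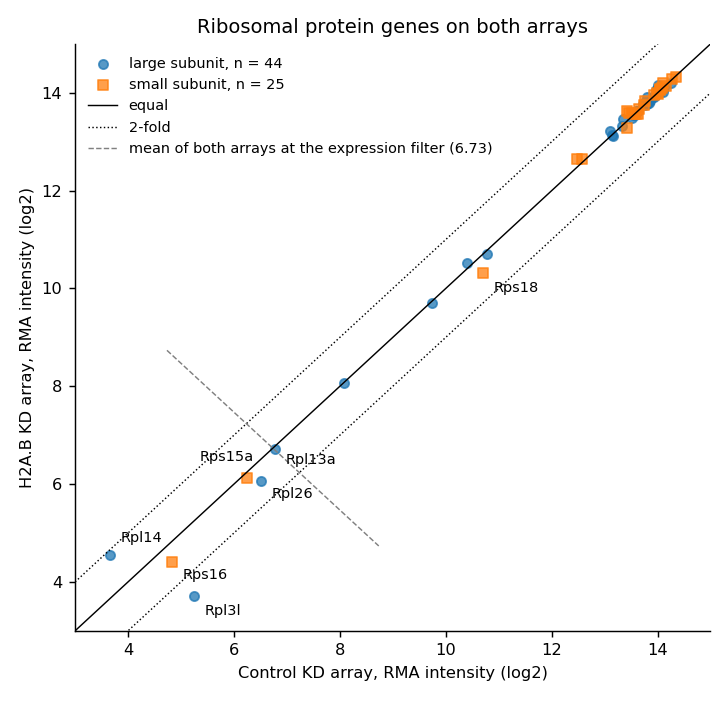
RMA intensity (log2) of the 69 ribosomal protein genes on the control KD array (x axis) and the H2A.B KD array (y axis), 1 point per gene by subunit, with lines for equal values, 2-fold differences and the expression filter on the mean. Most points sit on the line of equal values above 13, and the only point beyond the 2-fold lines is Rpl3l.

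Most of the genes were very bright. Of the 69, 64 passed the expression filter, a mean of both arrays at or above the median over genes (6.73), and 62 stood at or above the 75th percentile (8.82). Their control values had a median of 13.75, close to the highest control value in the whole table, 14.51, and 48 of them lay within 1 of it. Of the 139 genes with a mean of 13 or more, 56 were ribosomal protein genes. Whether signals so near the top of the scale were compressed was not tested.

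Past the filter, none of the 64 genes differed by 2-fold, against 0.676% of 8282 genes higher and 1.28% lower. Within 0.1 lay 53 of the 64 (82.8%), against 58.5% of the 8282 genes. The median absolute difference was 0.025 for the ribosomal protein genes and 0.073 for all genes past the filter. Among genes of like brightness, at 13 or more, it was 0.020 for ribosomal protein genes and 0.029 for other genes. Among genes at 13 or more, 48 of 56 ribosomal protein genes (85.7%) and 57 of 83 other genes (68.7%) were within 0.1, so the bright genes outside the group were also close to equal. Across probe sets of one gene past the filter, the SD of the difference had a median of 0.052 over 2556 genes, which is the only spread the 2 arrays offer.

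Both subunits had medians close to 0. The 44 large subunit genes had a median of -0.0065, with 19 above and 25 below 0, and the 25 small subunit genes one of 0.0027, with 15 above and 10 below. Past the filter the large subunit ranged from -0.09 to 0.16 over 41 genes and the small subunit from -0.38 to 0.20 over 23. Whether the subunits differ was not tested.

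The P stalk recruits the elongation factors to the large subunit, and the mRNA signals of its 3 genes were level. Rplp0, the base of the stalk, read 14.11 in control KD and 14.10 in H2A.B KD cells. Rplp1 had 14.01 and 14.003, and its partner Rplp2 14.08 and 14.09. The differences of the stalk genes ran from -0.0099 to 0.014.

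Several other large subunit proteins have roles beyond the ribosome. Rpl11, which with 5S rRNA binds and inhibits Mdm2, read 13.58 in control KD and 13.56 in H2A.B KD cells. Its second probe set, far dimmer at 6.96 and 7.29, differed by 0.34. Rpl23, another Mdm2 binder, had 14.10 and 14.02 (-0.09). Its dim x-suffixed probe set stood at 6.89 and 5.69 (-1.20), while the other stood at 4.26 and 4.31. Rpl13a, a protein of the interferon-gamma translational silencing complex, was read only on a dim probe set, with 6.77 and 6.72.

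Near the peptide exit tunnel, Rpl4 read 14.02 in control KD and 14.03 in H2A.B KD cells, and Rpl39 had 14.07 and 14.05. Rpl35 had 13.62 and 13.63 (0.0052). Its other usable probe sets differed in size: one had 13.61 and 13.60, and the x-suffixed one had 10.88 and 8.19, a difference of -2.69 and the widest of all 130 usable ribosomal protein probe sets. Rpl10, an X-linked protein that joins the large subunit last, read 13.99 in control KD and 14.08 in H2A.B KD cells, a difference of 0.10, with 0.21 on its dimmer probe set. The other X-linked members were level: Rpl36a differed by -0.03, Rps4x by 0.02 and Rpl39 by -0.02.

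In the small subunit, Rps6, the phosphorylation target of the mTOR-driven S6 kinases, read 14.28 in control KD and 14.29 in H2A.B KD cells, and its dimmer probe sets gave differences of -0.06 and -0.05. Rps2 was the brightest member, with 14.36 and 14.33. Rps4x had 14.06 and 14.08. Rps19, the gene most often mutated in Diamond-Blackfan anaemia, had 13.51 and 13.60 (0.08). Rpsa, also known as the laminin receptor precursor, had 14.10 and 14.20 (0.11), and its dim probe set went the other way at 7.15 and 7.004. The values of these genes were within 0.11 of equal on their brightest probe sets.

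**Figure D2:**
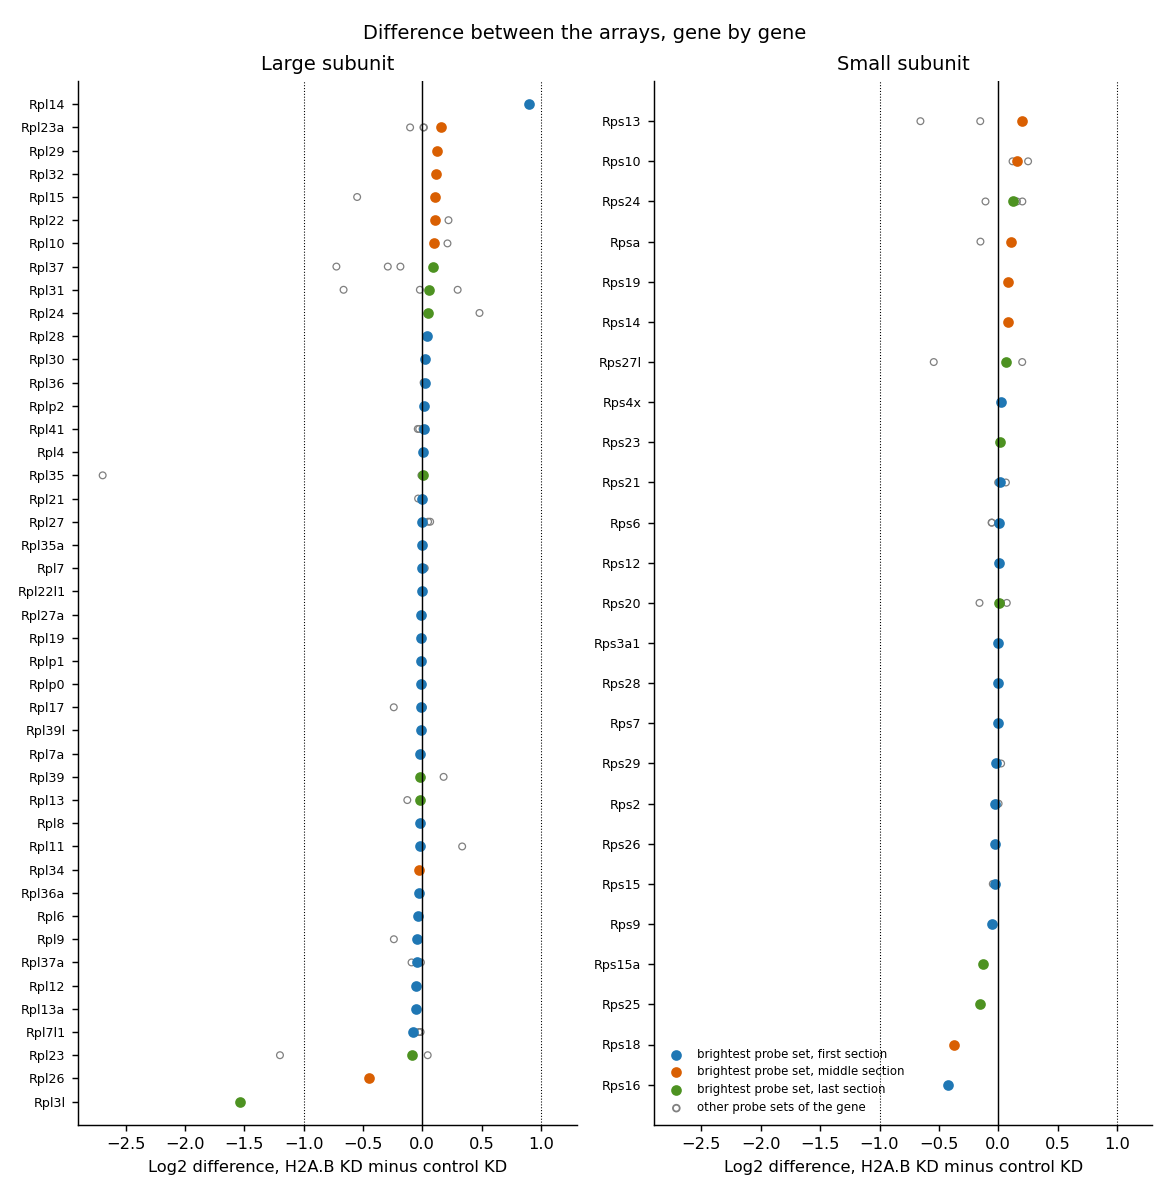
Log2 difference, H2A.B KD minus control KD, for each of the 44 large subunit and 25 small subunit genes, ordered by difference; filled points are the brightest probe set, coloured by the section of the table it lies in, and open grey points the other usable probe sets of the gene. The filled points form a narrow column at 0 that only Rpl3l leaves by 2-fold, while open points reach -2.69 at Rpl35.

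The paralogs, genes related to those of standard ribosomal proteins, were not alike. Rpl3l, the striated-muscle form of Rpl3, read 5.25 in control KD and 3.72 in H2A.B KD cells, 2.89-fold lower (-1.53). Both values lay below the median of their array, 5.64 and 5.59, and its single probe set gave no second reading. That probe set lay in the last section of the table, described below. There 85.3% of all genes past the filter were within 0.5, against 98.3% in the first section. The other paralogs were within 0.1 of equal: Rpl22l1, which can stand in for Rpl22, had 13.15 and 13.14, and Rpl39l, abundant in male germ cells, had 8.08 and 8.07. Rpl7l1, a relative of Rpl7, had 10.78 and 10.71, with -0.03 and -0.01 on its other probe sets. Rps27l, a p53 target, had 12.58 and 12.65 (0.07), and its less bright probe sets gave differences of 0.20 and -0.54. Rpl22 itself had 10.41 and 10.52, with 0.22 on its dimmer probe set. A value of its brighter probe set recurs as a control value in a nearby row of the table.

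Among the values used for the genes, the largest differences belonged to dim probe sets. Rpl14 read 3.66 in control KD and 4.56 in H2A.B KD cells, 1.86-fold higher, the second largest after Rpl3l. Rpl26, whose protein also binds p53 mRNA, had 6.51 and 6.06 (-0.45), and Rps16 4.83 and 4.41 (-0.42). Rps15a, also dim, differed less than several bright genes, at 6.25 and 6.13 (-0.13). Each of these was read on a single probe set below the expression filter. For Rpl26, a value of the probe set recurs as a control value in a nearby row of the table. Rpl14, Rps16 and Rpl3l lay below the control array's median. Whether their signal was above background was not tested.

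Past the filter, the widest difference was that of Rps18, a protein of the head of the small subunit, at 10.70 in control KD and 10.32 in H2A.B KD cells (-0.38) on 1 probe set. A value of that probe set recurs as a control value in a nearby row of the table. Rps13 followed at 13.43 and 13.63 (0.20), but its other probe sets gave differences of -0.66 and -0.15. Rpl23a, at the tunnel exit, had 14.01 and 14.17 (0.16). Its nearly as bright probe sets, with control values of 13.89 and 13.92, differed by 0.0098 and 0.014, and a dim one by -0.10. Rps10, ubiquitinated when ribosomes stall, had 12.49 and 12.64 (0.15), with 0.12 and 0.25 on its others. A value of each of its probe sets with 0.15 and 0.12 also recurs as a control value in a nearby row. Rps25, used by viral internal ribosome entry, had 13.42 and 13.27 (-0.15) on 1 probe set. Rps24 had 13.46 and 13.58 (0.13). Its x-suffixed second probe set agreed at 12.86 and 13.02 (0.16), as did one at 7.90 and 8.10 (0.20), while the dimmest differed by -0.11. The values read for Rps18, Rps13, Rpl23a and Rps10 lay in the middle section of the table, described below, and those for Rps25 and Rps24 in the last. In both sections, differences over all genes past the filter were wider than in the first.

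Bright probe sets were closer to equal than dim ones, with overlap. Of the 130 usable probe sets, the 70 at 13 or more ranged from -0.15 to 0.20, with an SD of 0.056 and 62 within 0.1. The 60 below 13 ranged from -2.69 to 0.90, with an SD of 0.50 and 24 within 0.1. Among the 61 probe sets that were not their gene's brightest, all 14 at 13 or more were within 0.1, and 19 of the 47 dimmer ones were.

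The genes with several probe sets show the same range of agreement. All 3 readings of Rpl7 lay between -0.0057 and 0.02, those of Rps2 between -0.03 and 0.0036 and the 4 of Rps21 between -0.00026 and 0.07. Rpl41, the smallest protein of the ribosome, had 4 readings between -0.04 and 0.01, and the 3 of Rpl21 lay between -0.04 and 0.0017. The 4 readings of Rpl31, by contrast, ran from -0.66 to 0.30 and those of Rpl37 from -0.72 to 0.09.

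**Figure D3:**
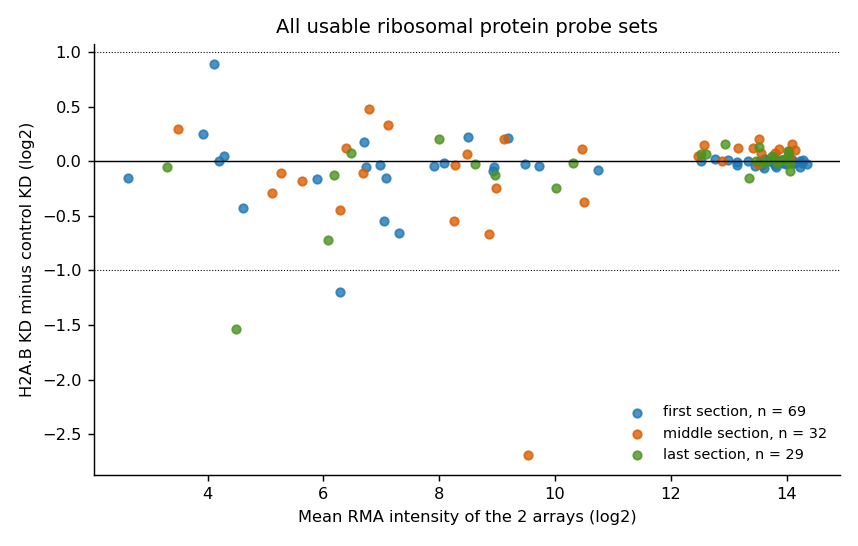
Log2 difference, H2A.B KD minus control KD, against the mean intensity of both arrays for the 130 usable ribosomal protein probe sets, coloured by section of the table. Above 13 the points stay between -0.15 and 0.20, and below 13 they reach -2.69 and 0.90.

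The place of a probe set in the deposited table went with its difference. In rows 18185 to 33642, called the middle section here, 1455 control values were exact repeats of a value up to 20 rows above, and the rows before and after are the first and last sections. The 41 ribosomal protein genes read in the first section had a median of -0.0082, with 39 within 0.1 (95.1%), against 81.2% of all genes past the filter there. The 14 in the middle section had a median of 0.11 and 11 above 0, with 4 within 0.1 (28.6%), against 26.1%. The 14 in the last had a median of 0.0040, with 10 within 0.1 (71.4%), against 24.5%. The share within 0.1 was thus near that of all genes past the filter in the middle section and above it in the others. The ribosomal protein shares include the genes below the filter.

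At 13 or more, 9 of the 10 ribosomal protein genes of the middle section were above 0, with a median of 0.11: Rps13, Rpl23a, Rpl29, Rpl32, Rpl15, Rpsa, Rpl10, Rps19 and Rps14, with Rpl34 at -0.03. The 21 other bright genes of that section had a median of -0.0049, with 10 above 0. All 35 bright ribosomal protein genes of the first section were within 0.06 of equal, and 43 of the 50 other bright genes there were within 0.1. In the last section the 11 bright ribosomal protein genes had a median of 0.0052 and the 12 others one of 0.10. For Rpl23a the reading was 0.014 in the first section and 0.16 in the middle, and for Rps29 -0.02 and 0.02. Over all genes past the filter, the last section spread about as widely as the middle one, with SDs of 0.44 and 0.48. The first section was narrower, with an SD of 0.23. What makes the middle and last sections differ from the first was not tested.

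**Figure D4:**
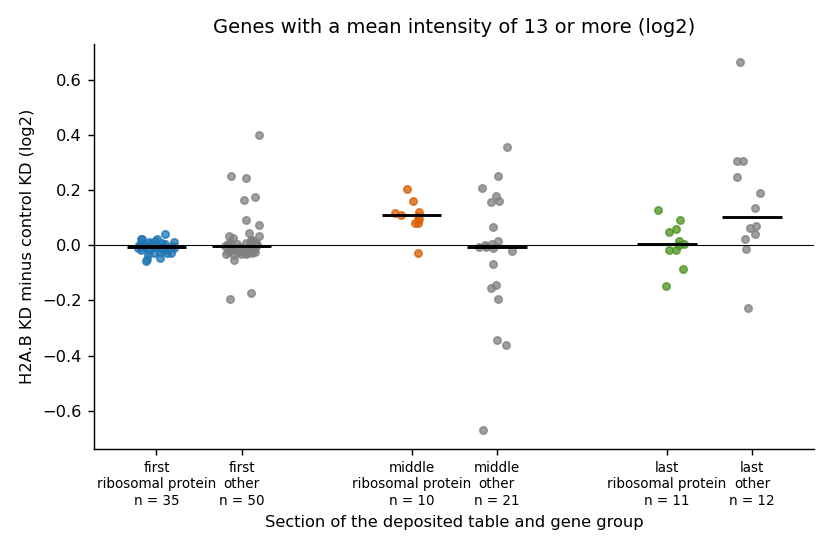
Log2 difference, H2A.B KD minus control KD, of the 139 genes with a mean intensity of 13 or more, by section of the table, for ribosomal protein genes (coloured) and other genes (grey); each point is a gene, spread sideways only for legibility, and the bar is the median. In the middle section 9 of 10 ribosomal protein genes lie above 0, while in the first section all 35 lie within 0.06 of it.

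Of 79 standard ribosomal protein genes, 65 were members, and the others, Fau apart, were not analysed here. Fau, which encodes the small subunit protein eS30 fused to a ubiquitin-like domain, does not match the rule; it read 12.98 in control KD and 12.92 in H2A.B KD cells. Rpl36al, a copy of Rpl36a, had 13.07 and 12.9996.

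Genes that make ribosomes or work with them had medians close to 0 in each of the following lists. Read on the probe set with the highest mean of both arrays, no gene past the filter in these lists differed by 2-fold. Among all 8282 genes past the filter, 0.676% were 2-fold higher and 1.28% lower. Translation genes with a TOP tract counted 15 genes past the filter, of which 6 were higher and 9 lower (median -0.02). The largest differences were those of the initiation factor subunit gene Eif3e, at 12.85 in control KD and 12.35 in H2A.B KD cells (-0.50), Naca of the nascent-chain complex (0.13) and the snoRNA host gene Gas5 (0.13). Initiation factors counted 16, with 9 higher and 7 lower (median 0.02), with Eif3m at 0.28, Eif3c at -0.19 and Eif2b4 at 0.18. For all genes past the filter the median was -0.0016, with 4086 higher and 4191 lower, and 58.5% were within 0.1. The share within 0.1 was 80% for the TOP translation genes and 62.5% for the initiation factors. Of the lists below, it was 67.3% for assembly factors, 87.5% for RNA polymerase I and its factors and 78.6% for mTOR and TOP regulators.

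Ribosome assembly factors counted 49, with 20 higher and 29 lower (median -0.0024). The helicase gene Ddx10 read 10.07 in control KD and 9.53 in H2A.B KD cells (-0.54), Rrp12, of subunit export, had 8.97 and 9.44 (0.47), and the endonuclease gene Nob1 differed by -0.30. RNA polymerase I and its factors, which transcribe ribosomal RNA, counted 16, with 3 higher and 13 lower (median -0.03), with Polr1d at -0.24, Twistnb at 0.13 and Polr1c at -0.08. mTOR and TOP regulators counted 14, with 7 higher and 7 lower (median -0.0080), with Eif4ebp2 at -0.12, Deptor at 0.10 and Lamtor2 at -0.10. Of the genes named so far from these lists, Rrp12 and Eif4ebp2 were read in the middle section of the table. Naca, Eif3c, Twistnb, Deptor and Lamtor2 were read in the first section and the others in the last. Among the less bright probe sets of these lists, 4 differed by 2-fold or more, named here after their values were seen. One for the initiation factor gene Eif4h differed by -2.92 (9.52 and 6.599), one for Deptor, an mTOR inhibitor, by -1.98 (8.12 and 6.14) and one for the assembly factor gene Gnl2 by -1.69, while one for Eif4g2 differed by 2.21. By the mean of both arrays, the brightest probe sets of these genes were within 0.11 of equal. On the control array alone, the Deptor probe set with -1.98 was brighter than the one read here (8.12 against 7.68).

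**Figure D5:**
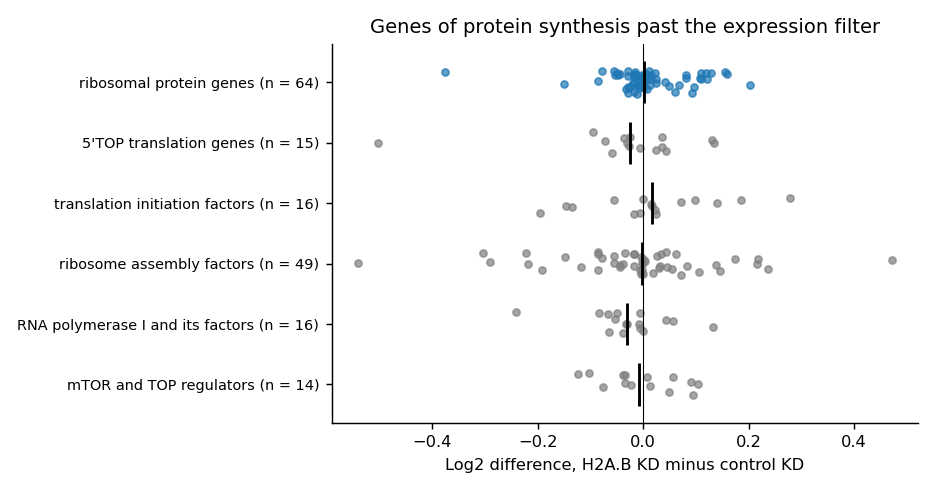
Log2 difference, H2A.B KD minus control KD, of the genes past the expression filter among ribosomal protein genes (blue) and 5 lists of genes of protein synthesis (grey); each point is a gene and the bar is the median. All medians lie between -0.03 and 0.02, and the points farthest from 0 are Ddx10 (-0.54), Eif3e (-0.50) and Rrp12 (0.47).

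ES cell markers were bright in both cultures. All 7 that had a value passed the filter, from 10.14 to 14.24 in control KD cells, and 6 were within 0.1 (Esrrb at 0.33, in the middle section). Of 6 fibroblast and feeder markers, Col1a1 (0.25) and Thy1 (0.07) passed the filter, with control values of 7.77 and 6.71. Of 4 differentiation markers only Pax6 did, at 9.66 and 8.88 (-0.78), while its dimmer probe sets gave differences of 0, -0.03 and 0.03. The probe set with 0 lay in the middle section and held the identical value, 5.32859, in both columns. Whether that value was a copy was not tested. The part of these markers in the ribosomal protein values was not tested.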

How the data were processed

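The authors deposited 1 table of values for 2 arrays, obtained by RMA, a tool named without a version per the submitters' processing notes. The control column was read as log2 intensities, from its range of 0.801 to 14.51; the deposited table names no scale. The deposited knockdown column runs on the same log2 scale, but was listed under the general unit score because 618 of its cells hold other numbers (616 that rise in steps of 1 between rows 2054 and 4710, and 2 others above 20). These were left out; none belonged to a ribosomal protein probe set. So were 1455 repeated control values, 3 of them in ribosomal protein probe sets (Rpl3, Rpl35 and Rps24).

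Gene names came from the platform annotation: of 45118 probe sets, 28898 named 1 gene, 551 several and 15669 none. The gene value is the probe set with the highest mean of both arrays. No normalization was added and nothing was tested, since each group has 1 array; an array gives no read count, so precision is limited by having 2 arrays. Python 3.11.15 and pandas 2.3.3 were used, and the steps were tested on simulated data. Values are given in full for all members that differed by 2-fold, the 10 with the largest difference and a fixed set with known roles. Of each related list the 3 largest past the filter are named. The members, lists and alternatives were chosen with earlier results of these data known.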

Additional observations from a re-analysis of the deposited data

How the results depend on the processing

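The median difference of the ribosomal protein genes stayed between -0.0236 (lowess centring) and 0.0014 in all alternatives except the middle section alone, where it was 0.0803 (large subunit 0.0729, small subunit 0.0803). The count of 2-fold higher genes was 0 in all but the 1.5-fold rule, which gave 1 (Rpl14). That of 2-fold lower genes was 1, and 0 among members past the expression filter or the 75th percentile. The gene was Rpl3l except in the first section alone (Rpl23, -1.20) and the middle section alone (Rpl35, -2.69). Leaving out both members of each repeated pair removed Rps18 and Rpl26, which left 67 genes. It also moved Rps10 to 0.25 and Rpl22 to 0.22. Genes within 0.5 numbered 28 of 31 on probe sets that carry no suffix, 25 of 27 in the middle section alone and 21 of 22 in the last; fewer genes had a probe set there. Among all genes past the filter, 2-fold higher genes numbered 87 without suffixed probe sets, 9 in the first section alone, 187 with no expression filter and 3 under the 75th-percentile limit, against 56. Lower ones numbered 38, 66 and 54 in the first, middle and last section alone, 482 with no filter and 17 at the 75th percentile, against 106. Among values of single named genes under alternatives, 29 moved by more than the probe set spread of 0.052 and 169 did not. Apart from centring, a gene with 1 probe set returns the same value under every alternative that keeps it. So does a gene for which the alternative picks the same probe set, and such values could not move. Rpl3l has 1 probe set, so its unmoved difference is no evidence of stability. No paired analysis was possible because each group has 1 array, and for the same reason no replicate could be left out.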

Other observations

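Probe sets that the annotation assigns to ribosomal protein pseudogenes were as bright as those of the genes. Rpl31-ps12 read 13.89 in control KD and 13.90 in H2A.B KD cells, and Rpl34-ps1 had 13.63 and 13.60. Rps15a-ps6 had 13.64 and 13.41 (-0.23) on its s-suffixed probe set and 3.69 and 3.65 on the other, whereas the probe set named for Rps15a itself had 6.25 and 6.13. Whether these bright probe sets read the parent genes was not tested.

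The kinases that share the Rps6 name but are not ribosomal proteins were dimmer. Rps6ka6 had 11.39 and 11.40 on its brightest probe set, Rps6ka3 7.56 and 7.54, Rps6ka5 7.39 and 7.45, Rps6kb2 7.53 and 7.496 and Rps6kl1 7.85 and 7.82. Rps6kc1 differed by -0.77, at 6.92 in control KD and 6.15 in H2A.B KD cells, in the middle section of the table. Rps19bp1, a binding partner of Rps19, differed by 0.26, in the last section.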
